A study of Mus musculus with 16 samples.

Results

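Bins low only after follicle culture were 10-kb stretches of the mouse autosomes in which oocytes grown in vitro carried less CpG methylation than oocytes that had grown in the ovary, whatever the age or the hormone treatment of the donor. A bin was taken when the mean of the in vitro follicle culture (IFC) samples lay at least 15 percentage points below the lowest of the other 3 group means and those 3 lay within 15 points of each other. Of 239399 autosomal bins with a call in any sample, 127108 had 10 or more methylation calls in each of the 16 samples, and 1195 of these (0.940%) met the rule and are called members here. The values that chose the members were the group means themselves, so the IFC levels in members are given as a description, and counts of calls in them support nothing.

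Oocytes at metaphase II (MII), the stage at which they are ready for fertilization, were compared after 4 routes of production to ask what growth in culture, hormonal stimulation and sexual immaturity do to the oocyte methylome. All donors were C57BL/6J X CBA/Ca F1 females, and each sample was a pool of oocytes sequenced after post-bisulfite adapter tagging (PBAT), in which adapters are added after bisulfite conversion so that little DNA is lost. IFC (n = 4) came from preantral follicles of 13-day-old females cultured individually for 10 days with recombinant follicle-stimulating hormone, insulin, transferrin, selenium and fetal bovine serum, and then given recombinant chorionic gonadotropin and epidermal growth factor, so that the oocytes were as old as those of 23-day-old females. SO (n = 5) came from prepubertal 23-day-old females superovulated with 2.5 IU of equine and then of human chorionic gonadotropin, SOA (n = 4) from 10-week-old adults superovulated with 5 IU of each, and IV (n = 3) from 10-week-old adults that ovulated without hormones after exposure to male pheromones. SO is thus the group matched to IFC in age, while SOA and IV differed from IFC in age too, and SO and SOA differed in age and in dose. Pools held oocytes of several females, and nothing in the labels ties a pool to a culture or an animal, so the spread given here is that between pools.

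A mouse oocyte is almost free of DNA methylation at birth and gains it while it grows, within the follicle, through the methyltransferase DNMT3A and its cofactor DNMT3L. The methylation is laid down mainly over transcribed gene bodies, so that the finished methylome alternates between domains that are nearly fully methylated and domains that are nearly free of it. CpG islands inside transcribed units, among them the maternal imprints, are methylated in the same way.

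The 5 windows of 300 bases below show what the clearest members look like, each being the window outside exons with the most calls in 1 of the 5 members with the largest gaps that had 20 or more calls in every sample and no overlap between IFC and other samples. They are the forward strand of GRCm38 and capitals mark the CpGs. For Gm31135 and Cacng3 the window with the most calls of all touched an exon and the best one clear of exons is shown.
Adam23, chr1:63588454-63588753: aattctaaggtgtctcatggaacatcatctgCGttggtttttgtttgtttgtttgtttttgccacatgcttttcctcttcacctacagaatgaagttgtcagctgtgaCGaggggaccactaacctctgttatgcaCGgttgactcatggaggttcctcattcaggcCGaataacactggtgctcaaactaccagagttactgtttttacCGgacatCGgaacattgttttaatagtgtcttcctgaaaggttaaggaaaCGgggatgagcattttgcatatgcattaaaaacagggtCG
Pipox, chr11:77887313-77887612: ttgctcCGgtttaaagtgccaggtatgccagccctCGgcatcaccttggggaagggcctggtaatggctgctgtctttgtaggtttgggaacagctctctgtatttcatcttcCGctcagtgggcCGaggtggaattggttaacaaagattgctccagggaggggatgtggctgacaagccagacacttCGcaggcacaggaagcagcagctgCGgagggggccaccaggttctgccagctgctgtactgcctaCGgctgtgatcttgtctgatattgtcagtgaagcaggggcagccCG
Gm31135, chr8:8442590-8442889: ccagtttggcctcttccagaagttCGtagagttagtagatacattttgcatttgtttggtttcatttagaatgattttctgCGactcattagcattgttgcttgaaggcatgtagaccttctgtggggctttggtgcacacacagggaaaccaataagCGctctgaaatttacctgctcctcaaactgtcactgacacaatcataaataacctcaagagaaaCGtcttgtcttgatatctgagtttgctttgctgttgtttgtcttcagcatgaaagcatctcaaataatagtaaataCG
Tmprss4 and BC049352, chr9:45184971-45185270: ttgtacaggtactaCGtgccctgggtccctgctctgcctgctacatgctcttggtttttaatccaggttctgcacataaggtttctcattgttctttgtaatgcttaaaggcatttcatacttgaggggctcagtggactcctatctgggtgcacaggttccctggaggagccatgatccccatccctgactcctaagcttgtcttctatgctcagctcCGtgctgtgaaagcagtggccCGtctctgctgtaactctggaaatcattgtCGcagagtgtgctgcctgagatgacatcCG
Cacng3, chr7:122765460-122765759: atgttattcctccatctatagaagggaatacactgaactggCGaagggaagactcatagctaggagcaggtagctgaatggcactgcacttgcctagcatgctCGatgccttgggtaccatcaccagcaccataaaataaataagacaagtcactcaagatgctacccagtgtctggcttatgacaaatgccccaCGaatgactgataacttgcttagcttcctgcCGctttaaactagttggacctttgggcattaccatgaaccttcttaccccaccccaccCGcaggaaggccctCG
Each window held between 5 and 8 CpGs. In the window within Adam23, 4 of 38 calls were methylated in the pooled IFC samples against 13 of 28 in SO, 20 of 26 in SOA and 29 of 38 in IV. In the window within Pipox, the counts were 4 of 22 calls in IFC, 36 of 45 in SO, 29 of 33 in SOA and 37 of 52 in IV. The Gm31135 window rested on 7 IFC calls, of which 3 were methylated, against 17 of 19 in SO, 13 of 14 in SOA and 24 of 26 in IV. At Tmprss4 and BC049352, 2 of 25 IFC calls were methylated, compared with 31 of 37 in SO, 17 of 21 in SOA and 10 of 19 in IV. At Cacng3, 3 of 16 IFC calls were methylated, compared with 9 of 20 in SO, 12 of 12 in SOA and 22 of 30 in IV. IFC had the lowest share of methylated calls in all 5 windows, which lie inside bins chosen for that difference, and the windows in which SO lay well below SOA and IV were those in Adam23 and Cacng3.

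The libraries held between 5218053 and 23065411 calls. All 4 IFC libraries were among the 9 with fewer calls, together with SO1, SO2 and SOA1 to SOA3, and all 3 IV libraries were among the deep ones. The reads came from either of 2 sequencer models, and the labels do not tie a library to a model. Calls within 1000 bp of the starts of maternally imprinted genes were methylated in every sample, as is known for oocytes (78.4 to 100% at Peg3, 92.3 to 100% at Kcnq1ot1, 82.8 to 100% at Snrpn, 60 to 100% at Peg10 in the 15 samples with a call), with lower values of 43.2 to 79.2% at Mest, and the region upstream of H19, which is methylated in sperm and not in oocytes, stood at 0 to 4.55%. The windows around every annotated start of Actb (16.8 to 61.0%) and Gapdh (23.4 to 79.2%), included as promoters without methylation, were not free of it. Transcript starts inside the gene were not left out, so these values need not be those of the main promoter alone. Averaged over all 127108 bins, methylation was 42.2% ± 0.933 in IFC (SD, n = 4), 42.3% ± 0.691 in SO (n = 5), 42.3% ± 1.13 in SOA (n = 4) and 42.8% ± 2.17 in IV (n = 3, with IV1 at 45.3%). The differences of IFC from SO, SOA and IV were -0.0419, -0.0678 and -0.585 points, none of which passed a two-sided exact permutation test over samples (p = 0.960, 1 and 0.714, adjusted p = 1 for each; the smallest p possible was 0.00794, 0.0286 and 0.0286).

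In the members, the mean level was 41.6, 39.98, 40.9 and 35.7% in IFC1 to IFC4. It was 65.6, 65.3, 63.3, 58.3 and 58.4% in SO1 to SO5, 69.0, 66.9, 66.3 and 63.8% in SOA1 to SOA4, and 66.8, 65.4 and 64.8% in IV1 to IV3. Every IFC sample thus lay below every other sample, IFC4 was the lowest of its group, and SO4 and SO5 were the lowest of the 12 others. By group the members stood at 39.6% ± 2.68 in IFC against 62.2% ± 3.60 in SO, 66.5% ± 2.17 in SOA and 65.7% ± 1.02 in IV, so that IFC minus SO was -22.6 points, IFC minus SOA -27.0 and IFC minus IV -26.1. Among the 9 libraries with fewer calls, IFC ran from 35.7 to 41.6% and SO1, SO2 and SOA1 to SOA3 from 65.3 to 69.0%, but these bins were chosen on the same samples, and the part of depth in the difference was not tested.

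**Figure D1:**
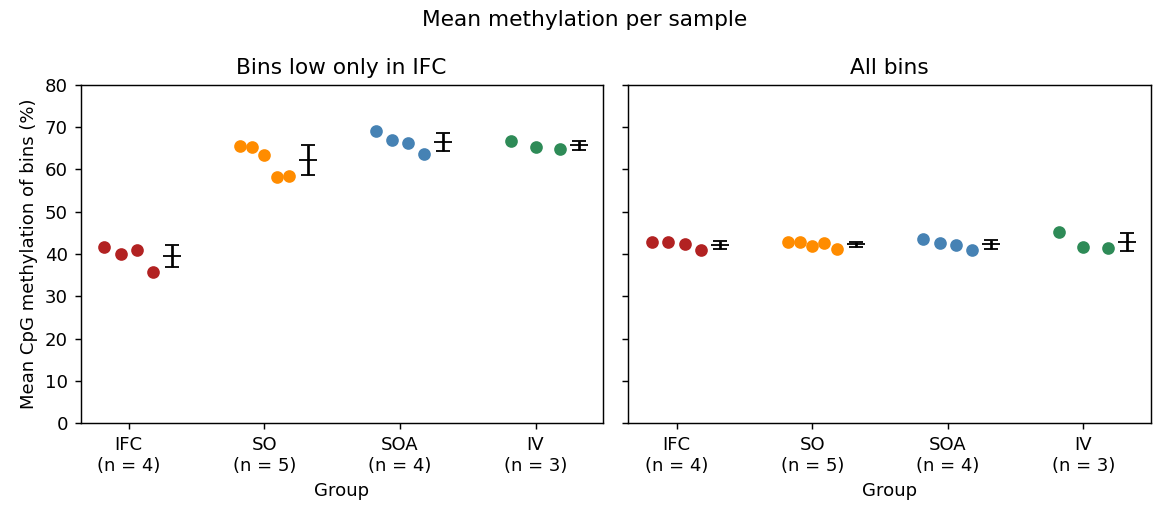
Mean CpG methylation (%) of each sample (points) over the 1195 bins low only in IFC (left) and over all 127108 bins (right), with the group mean and SD in black. In the members the IFC points lie between 35.7 and 41.6% and the others between 58.3 and 69.0%, while over all bins the 4 groups lie together.

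The same rule with another group in the place of IFC found far fewer bins. It found 86 bins low only in SO, 82 low only in SOA and 93 low only in IV. With the direction turned, 494 bins were high only in IFC, against 100 in SO, 224 in SOA and 93 in IV. By this rule IFC therefore stood apart alone more often than any other group in both directions, and more often by being low. The rule counts only bins in which 1 group differs from the other 3. A difference between the prepubertal and the adult groups, shared by IFC and SO or by SOA and IV, is not in these counts. Groups also differed in their number of samples and in depth. After thinning to the shallowest library 984 bins were low only in IFC, but the counts of the other groups were not repeated. The part of sample number and depth in the difference between groups was thus not tested. The bins high only in IFC were at 55.2% ± 3.44 in IFC and at 33.9% ± 0.858 in SO, 31.5% ± 1.28 in SOA and 31.5% ± 2.99 in IV.

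**Figure D2:**
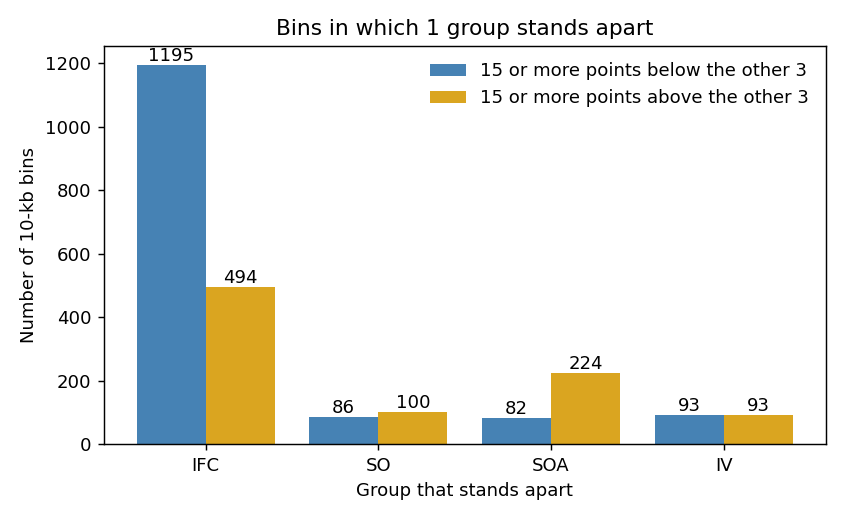
Number of 10-kb bins in which 1 group mean lay 15 or more points below (blue) or above (yellow) the other 3, which lay within 15 points of each other. IFC has 1195 low and 494 high bins, and no other group has more than 224.

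The gap, meaning the lowest of the SO, SOA and IV means minus the IFC mean, was 15 to under 20 points in 636 members, 20 to under 25 in 306, 25 to under 30 in 134, 30 to under 40 in 100 and 40 or more in 19, with a median of 19.4 and a maximum of 53.7. The members just inside the limit had gaps of 15.0019 (a bin of chromosome 7 without a protein-coding gene), 15.0048 (Lama1, a laminin chain of basement membranes) and 15.0059 (Ahnak, a large scaffold protein), and the bins just outside it 14.9942 (Dcc), 14.9895 (Cdh13) and 14.9893 (Myo3b, an actin motor). All 4 IFC samples lay below all 12 other samples in 509 members (42.6%), against 0.748% of all bins, a contrast that the rule used. IFC1 lay below the lowest of the other group means in 1150 members and IFC2 in 1147, which the rule nearly fixes.

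In most members IFC kept part of the methylation seen in the other groups. In oocytes grown in the ovary (mean of SO, SOA and IV), 141 members stood at 20 to 40%, 320 at 40 to 60%, 432 at 60 to 80% and 302 at 80% or more. In IFC, 208 were under 20%, 402 at 20 to 40%, 399 at 40 to 60%, 185 at 60 to 80% and 1 above 80%. Taken as a share of all bins of the same level, members made up 0.943% at 20 to 40%, 2.71% at 40 to 60%, 3.96% at 60 to 80% and 0.881% at 80% or more, so that they were densest between 40 and 80%, the range between the methylated and the unmethylated domains. Bins high only in IFC made up 1.31, 1.07, 0.275 and 0% of those levels, and the rest of them lay under 20%. The limit of 15 points itself keeps members out of bins below 15% and bins high only in IFC out of the highest levels, so the 2 distributions are bounded at opposite ends, and 43.4% of all bins were under 20% in the oocytes grown in the ovary. The part of counting error, which is widest at intermediate levels, was not tested.

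**Figure D3:**
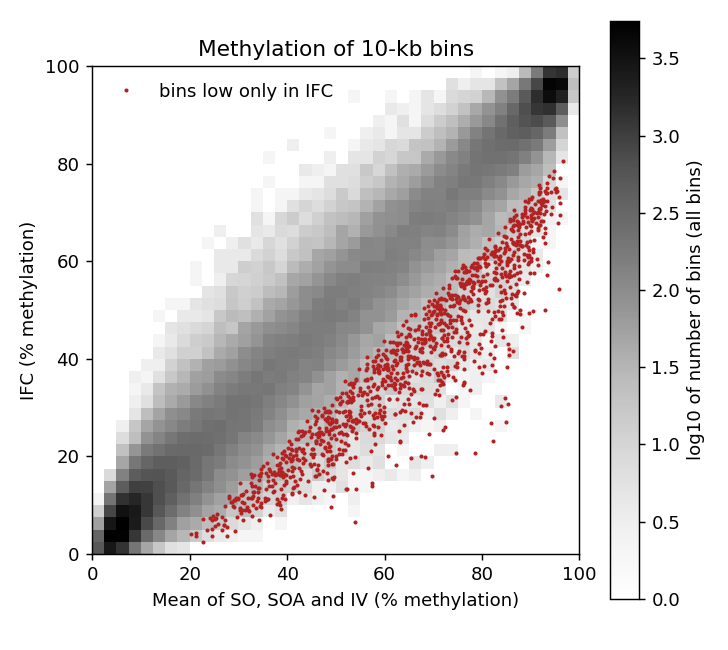
Methylation of 10-kb bins in IFC (vertical, %) against the mean of SO, SOA and IV (horizontal, %); grey shows the log10 number of all 127108 bins and red points are the 1195 members. The members run along the lower side of the diagonal, with most points between 40 and 80% on the horizontal axis.

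The members were also cut into pieces of 1 kb, from the same calls that chose them, so that these values too are a description. Of the 11950 pieces of 1 kb in members, 6525 had enough calls in every group to be reduced to 10 calls each. Of these, 26.1% had 0 or 1 methylated call of 10 in IFC, against 10.5% in SO, 9.49% in SOA and 7.82% in IV. At the other end, 10.1% had 9 or 10 methylated calls in IFC, against 27.5% in SO, 35.6% in SOA and 34.8% in IV. Pieces with 2 to 8 methylated calls were the most common kind in all 4 groups (63.8% in IFC against 62.0% in SO, 54.9% in SOA and 57.4% in IV). IFC was below the other 3 in 78.6% of the pieces in members, and in 28.3% of the pieces of bins that were no members and stood at 40 to 90% in the other groups.

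Since the members were chosen on these values, the level in samples or calls that had no part in the choice was set beside them. When the bins were chosen again without 1 IFC sample, the difference of that sample from the mean of the other 3 groups was -16.7 points for IFC1, -16.4 for IFC2, -17.5 for IFC3 and -23.6 for IFC4, in the 1130 to 1539 bins found. In the same bins the remaining IFC samples, which had chosen them, differed by -25.06, -25.002, -25.09 and -25.15 points. The SO, SOA and IV samples it is set against did take part in the choice of these bins. The left-out sample was thus low in all 4 cases and less so than the choosing samples in each. The same exercise with other samples gave -3.14, -2.85, -2.80, -9.11 and -9.33 points for SO1 to SO5, between -1.32 and 4.27 for the SOA samples and between -0.942 and 1.41 for the IV samples. When bins were chosen on the calls of the forward strand alone, 392 were found, in which the calls of the reverse strand gave 46.0% ± 3.07 in IFC against 59.0% ± 2.90 in SO, 63.4% ± 1.82 in SOA and 62.6% ± 1.17 in IV. The difference on the strand not used was -15.7 points, against -25.7 points on the strand that chose the bins. The turned choice gave 371 bins and likewise -15.7 points against -24.9. Both strands come from the same pools and libraries.

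SO, the group matched to IFC in age, was the lowest of the other 3 groups in 758 members, IV in 252 and SOA in 185. SO lay below SOA in 930 members (77.8%) and in 48.9% of all bins, and the median difference of SO from SOA was -4.34 points in members and 0.104 over all bins. SO4 or SO5 was the lowest of the 12 other samples in 257 and 253 members, more often than any other sample, and SO1 to SO3 in 114, 117 and 57. With SO4 and SO5 left out of the rule, 1595 bins met it in place of 1195. This setting was added after the values were seen, and leaving out low SO samples makes a higher count likely beforehand. By a likelihood-ratio test of the calls with Benjamini-Hochberg adjustment at 0.05, SO was lower than SOA in 128 members (10.7%), against 3.7% of all bins, and higher in 6, against 5.3%. With limma on the sample percentages, 0 members were called, against 0.212% of all bins called lower, and the 5 SO samples lay below the 4 SOA samples without overlap in 16 members (1.34%), against 1.58% of all bins. Between SOA and IV, the adult groups, 19 members were called lower in SOA (6.77% of all bins) and 14 higher (1.77% of all bins) by the likelihood-ratio test, and limma called 0 members and 0 of all bins. The share of all bins moves with single samples, and the 10861 calls over all bins became 2005 without IV1, 4664 without SOA4 and 19632 without IV3. The study suspected a little DNA of somatic cells in IV1 and kept that sample. The rule bounds all these differences, since it keeps the 3 groups within 15 points.

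For the contrasts that chose them, 1024 members were called lower in IFC than in SO by the likelihood-ratio test, against 3.04% of all bins, 1107 than in SOA, against 5.27%, and 1140 than in IV, against 8.36%. In 974 members all 3 calls were made, against 1.71% of all bins. limma, which sets the difference against the spread between samples, called 71 members against SO (0.0724% of all bins), 392 against SOA (1.05%) and 411 against IV (1.09%). The test called 0 members higher in IFC than in SO, SOA or IV, against 2.55, 6.41 and 5.92% of all bins. These counts say how many of the chosen differences each test would have picked, and nothing is read from them.

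The members held fewer CpGs and overlapped a gene less often than bins in general, which was not tested. They held a median of 92 CpGs, against 101 in all bins. A protein-coding gene overlapped 51.7% of members (618 bins), against 60.2% of all bins and 68.4% of bins that stood at 40 to 90% in the other groups, and 36.7% (438) overlapped no gene, against 31.5 and 24.2%. The genes that did overlap members were long, with 41.3% of members in a gene of 100 kb or more, against 31.9% of all bins and 35.9% of bins at 40 to 90%. Transcript starts and CpG-dense regions, runs of 50 or more CpGs that on average follow each other every 20 bp or closer, were scarce. A start lay in 16.5% of members, against 27.5% of all bins, a CpG-dense region in 4.44%, against 10.9%, and the median distance to the nearest start was 23044 bp, against 13759 bp. Bins high only in IFC differed from the members in both, with a start in 33.8% and a CpG-dense region in 17.4%. IFC stood at 40.1% in members with a protein-coding gene, 40.1% in those with a long noncoding RNA gene only and 38.6% in those with no gene. Members had a median of 826 calls over the 16 samples, against 927 in all bins, and took between 0.807 and 0.858% of the calls of every library.

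Many members lay near each other. Each had its nearest fellow member at a median of 60 kb, 54.3% had one within 100 kb and 31.1% were next to one. Single bins made up 823 of the runs, and there were 111 runs of 2 bins, 25 of 3, 8 of 4, 4 of 5, 2 of 7 and 1 of 9. Around the members, neighbouring bins that were not members themselves were also lower in IFC, which differed from the mean of the others by -9.49 points at 10 kb on the left and -9.66 points at 10 kb on the right of the member (IFC 41.7% ± 2.28 and 43.2% ± 1.73). The difference shrank with distance to -4.59 and -4.57 points at 50 kb and to -2.40 and -2.63 points at 100 kb, compared with -0.231 points over all bins. SOA stood at 66.5% in the member and at 42.7 and 42.5% at 100 kb, and IFC at 39.6% in the member and 40.04 and 39.6% at 100 kb. The levels in the member itself are those the rule used, and the neighbours leave out members, so nothing is read from the step between them. Chromosome 6 had the highest share of members, 1.53% of its bins (110), followed by chromosome 7 with 1.35% (102), and chromosome 17 the lowest with 0.535% (28). Single genes supplied many of these, on chromosome 6 Sox5 with 31 and Plxna4 with 13. On chromosome 7 they were Tenm4 with 19, Prkcb with 17 and Plpp4 with 7.

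**Figure D4:**
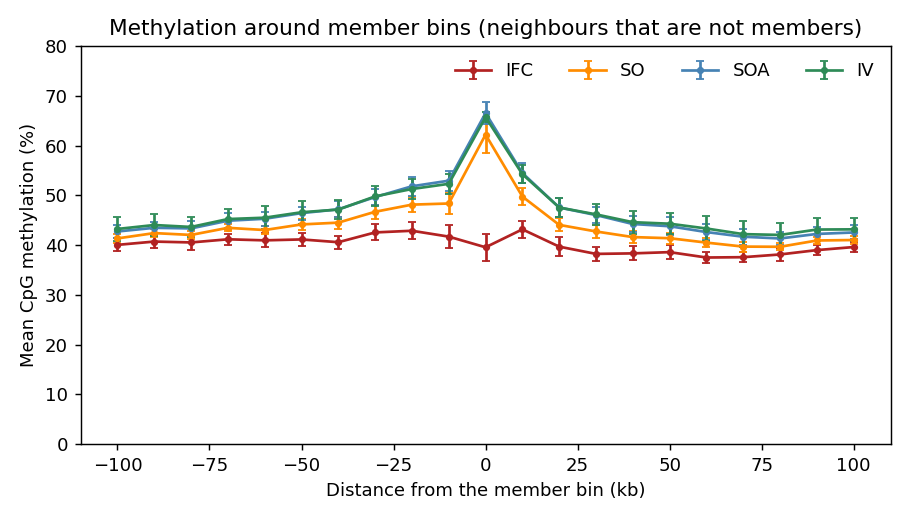
Mean CpG methylation (%) of each group at the member bins (distance 0) and in bins up to 100 kb to either side that are no members; points are means over samples and bars are SD. The levels at distance 0 (39.6% in IFC, with SO, SOA and IV at 62.2, 66.5 and 65.7%) are those that chose the members; in the neighbours IFC is the lowest line up to 100 kb on both sides.

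Of 28444 annotated genes with a measured bin, 521 overlapped a member, 121 overlapped 2 or more, 61 overlapped 3 or more and 24 overlapped 5 or more. Genes with 3 or more members accounted for 337 members. The same count for bins high only in IFC was 13 genes with 3 or more, and 12 genes held bins of both kinds. The 10 genes with the most members had no bin high only in IFC. Such bins made up only 0.403% of all bins in genes, and a member cannot be one, so nothing is read from their absence.

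Sox5, which encodes a SoxD transcription factor of cartilage and neuron development (ENSMUSG00000041540.16, chr6:143828425-144781977), held the most, with 31 of its 91 bins. Its members averaged 43.4, 42.3, 44.5 and 34.7% in IFC1 to IFC4, 71.2, 67.8, 66.1, 57.4 and 59.6% in SO1 to SO5, 71.6, 68.2, 70.1 and 66.7% in SOA1 to SOA4, and 72.6, 67.0 and 68.8% in IV1 to IV3. The lowest of the other samples, SO4, was thus still above the highest IFC sample. The first member lay 67.0 kb from the annotated start and the last 917 kb, so that members lay along most of the gene, with a longest run of 7 bins. In the 60 bins of Sox5 that were not members, IFC stood at 30.9%, against 37.7% in SO, 41.2% in SOA and 42.3% in IV, and was the lowest group in 42, against 26.3% of all bins. The same count was 26 of the 47 other bins in Tenm4, 16 of 25 in Myo16, 11 of 18 in Prkcb, 15 of 29 in Plxna4, 20 of 32 in Etl4, 49 of 94 in Cdh13, 8 of 11 in Col24a1, 20 of 102 in Gm37240 and 3 of 3 in Plpp4. Members were left out of these counts, and the genes were chosen by their members. Bins far lower after culture stayed in where the other 3 group means lay more than 15 points apart. An example is the Myo16 bin 101 kb from the start, with IFC at 34.3%, SO at 71.3% and SOA at 87.2%. The Tenm4 bin at 694 kb is another, where IFC was at 20.8%, SO at 55.4% and SOA at 72.3%.

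Tenm4, a teneurin, a transmembrane protein of synaptic adhesion (ENSMUSG00000048078.16, chr7:96171246-96911093), had 19 members among 66 bins. They averaged 20.7, 21.8, 19.2 and 18.5% in the IFC samples, 45.0, 44.3, 46.1, 35.7 and 36.8% in the SO samples, 49.7, 51.6, 50.3 and 43.4% in the SOA samples, and 50.3, 47.1 and 42.4% in the IV samples. Among the members of the 10 genes, those of Tenm4 were the least methylated in all groups, and in them the IFC samples did not overlap with the others. The members began 274 kb from the start.

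Myo16, an unconventional myosin found mainly in brain (ENSMUSG00000039057.11, chr8:10153911-10634742), had 18 members among 43 bins. The IFC samples were at 32.8, 42.3, 34.8 and 26.3%, the SO samples at 61.6, 56.7, 65.3, 61.7 and 60.3%, the SOA samples at 70.2, 69.8, 72.4 and 64.3%, and the IV samples at 69.4, 64.6 and 65.5%. IFC2 was the highest IFC sample and lay below SO2, the lowest of the others. All members lay within 341 kb of the start, and the 25 other bins averaged 62.8% in IFC, against 71.5% in SO, 75.9% in SOA and 75.4% in IV. One of the CpG-dense members covers its start.

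Prkcb, which encodes protein kinase C beta (ENSMUSG00000052889.11, chr7:122288751-122634402), had 17 members among 35 bins and the longest run of all, 9 adjacent bins at chr7:122550000-122639999. In that run the IFC samples stood at 46.4, 50.7, 48.6 and 35.6%, the SO samples at 70.0, 65.6, 64.8, 63.2 and 60.7%, the SOA samples at 76.0, 73.9, 71.1 and 73.8%, and the IV samples at 75.3, 74.9 and 64.3%. IFC4 was the lowest, and IFC2, the highest IFC sample, lay below SO5, the lowest of the others. The next gene on the chromosome, Cacng3, an auxiliary subunit of AMPA receptors, had 5 members, and 22 of the 47 measured bins between the start of Prkcb and the end of Cacng3 (481 kb) were members. IFC was the lowest group in 39 of the 47, a count that includes the members, against 26.3% of all bins.

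**Figure D5:**
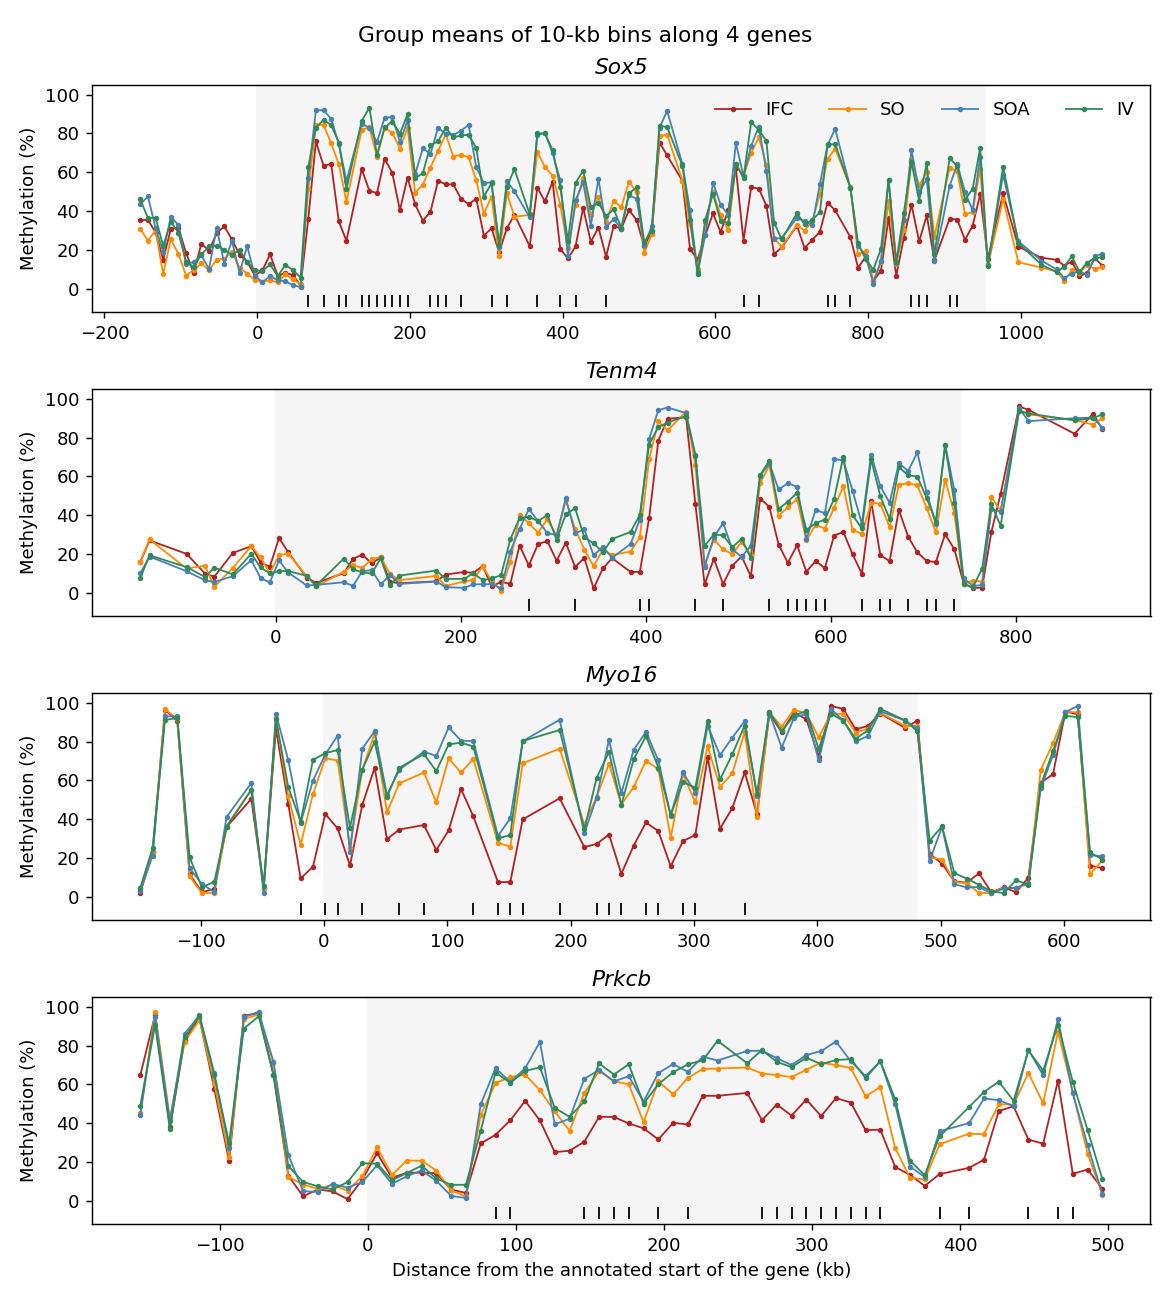
Group means of CpG methylation (%) of 10-kb bins along Sox5, Tenm4, Myo16 and Prkcb, by distance (kb) from the annotated start of the gene in its direction of transcription; grey marks the gene body and ticks under the lines mark members. The IFC line (red) is the lowest at each tick, as the rule requires, and in part of the other bins of each gene (42 of 60 in Sox5, 26 of 47 in Tenm4, 16 of 25 in Myo16 and 11 of 18 in Prkcb, against 26.3% of all bins).

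The other genes of the 10 had 7 to 13 members each. Plxna4, a plexin that receives semaphorin signals in axon guidance, had 13 members among 42 bins, at 54.5% ± 5.34 in IFC and 79.4% ± 2.99 in SO, with a run of 7 bins in which IFC was at 60.2% ± 6.16 and SO at 82.0% ± 2.85. Etl4, known for its role in the notochord and the intervertebral discs, had 10 of 42 (26.0% ± 3.38 in IFC against 53.6% ± 5.96 in SO). Cdh13, a cadherin held to the membrane by a lipid anchor, had 10 of 104 (61.5% ± 4.02 and 81.8% ± 4.15). The members of these 3 genes lay inside the gene bodies, at 43.2 to 223 kb, 325 to 855 kb and 301 to 471 kb from the start. Col24a1, a fibrillar collagen, had 9 of 20, at 42.3% ± 6.80 in IFC and 62.6% ± 4.12 in SO. Gm37240, a gene model of 1391 kb, had 8 of 110, at 29.4% ± 3.18 and 57.1% ± 4.79. Its members fell in a stretch of 2.52 to 123 kb from the start. It spans the genes Glt28d2 and Fam160a1, which held 3 members each that are counted for Gm37240 too. Plpp4, a phospholipid phosphatase, had the highest proportion of the 10, with 7 of its 10 bins, at 52.0% ± 2.04 in IFC and 84.5% ± 6.72 in SO. Sh3gl2, an endophilin of synaptic vesicle recycling, and Chst11, a sulfotransferase of chondroitin synthesis, tied with it at 7 members with smaller summed gaps.

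Of the remaining long runs, 1 of 5 bins lay in Arhgef28 (chr13:97950000-97999999), where IFC was at 42.5% ± 7.26, SO at 75.4% ± 7.05, SOA at 77.4% ± 5.94 and IV at 73.5% ± 4.60. Another, at Glt28d2 and the start region of Gm37240 (chr3:85840000-85889999), had no overlap of samples in any of its 5 bins, with IFC at 35.4% ± 5.46, SO at 66.4% ± 4.76, SOA at 69.8% ± 2.61 and IV at 68.9% ± 4.30. In both runs IFC was about as far below SO as below the adult groups.

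The largest gaps were found partly in genes named above and partly elsewhere. The largest of all those with 20 or more calls in every sample and no overlap was a bin of Adam23, a metalloprotease-like protein of neurons without protease activity, at chr1:63580000-63589999, which contains an annotated transcript start. It had 16.7, 23.5, 39.1 and 28.9% in the IFC samples, 86.7, 86.8, 87.4, 69.9 and 72.9% in the SO samples, 90.5, 87.5, 85.0 and 90.6% in the SOA samples, and 80.4, 83.9 and 93.4% in the IV samples, a gap of 53.7 points. SO4 and SO5 were the lowest of the 12 others and lay well above IFC3, the highest IFC sample.

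The bin at Pipox, a peroxisomal enzyme that oxidizes pipecolic acid and sarcosine (chr11:77880000-77889999), had 28.6, 38.8, 28.9 and 11.1% in the IFC samples and 70.7% in SO2, the lowest of the others, with group means of 26.8% ± 11.5 in IFC against 82.4% ± 8.25 in SO, 83.0% ± 7.13 in SOA and 79.98% ± 2.501 in IV. Its gap was 53.1 points. The bin at the long noncoding RNA gene Gm31135 (chr8:8440000-8449999) had a gap of 46.0, with 16.0% ± 5.49 in IFC and 61.9% ± 12.9 in SO, whose samples ran from 45.7 to 73.3%. Tmprss4, a membrane-bound serine protease, shared its bin with BC049352 (chr9:45180000-45189999), at 14.6% ± 5.13 in IFC and 56.6% ± 7.53 in SO, and the bin at the end of Cacng3 (chr7:122760000-122769999) was at 13.9% ± 5.19 and 55.8% ± 9.44, with gaps of 41.4 each. These 3 bins were thus under 20% in IFC and at an intermediate level elsewhere. The next were bins at the noncoding gene Gm29154 with a gap of 39.96 (38.4% ± 8.08 in IFC against 78.3% ± 9.26 in SO), at Plpp4 with 38.0 (40.9% ± 9.55 and 82.3% ± 12.4), and in a stretch without genes 174 kb from Wdr11 with 37.9 (49.9% ± 9.26 and 87.8% ± 7.33).

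CpG-dense regions lay in 53 members, which stood at 35.3% in IFC against 58.1% in SO, 60.8% in SOA and 59.2% in IV. The 5 with the largest gaps were at Plpp4 (38.0), Grid2ip, a scaffold protein of Purkinje cell synapses (35.3), the histone genes Hist1h2be and Hist1h1e (31.2), Etl4 (29.9) and Myo16 (28.7). The Grid2ip bin had 27.6, 43.6, 42.3 and 17.1% in the IFC samples, 72.0, 76.1, 75.7, 68.0 and 48.2% in the SO samples, 86.4, 75, 66.7 and 80.3% in the SOA samples and 61.2, 70.5 and 74.3% in the IV samples. SO5 came nearest to IFC there. The histone bin and the Myo16 bin were members in which samples overlapped, with IFC at 37.9% ± 19.3 and 42.7% ± 15.5, the widest IFC spreads among these bins. Whether reads of near-identical histone genes were mistaken for each other was not tested.

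Among genes of 6 lists, the 39 of neuronal adhesion and synapse had 49 members among 1350 bins (3.63%), in 15 genes, against 0.870% of all bins in genes and 1.22% of those in genes of 100 kb or more. The median difference of IFC from the other groups over the bins of these genes was -0.104 points, against 0.301 over all bins in genes. The members were concentrated in Tenm4 with 19, Nrxn3, a presynaptic adhesion receptor, with 6 (39.2% in IFC against 64.3% in SO), Tenm2 with 5 (34.1 and 55.0%), Dcc, the netrin receptor, with 5 (32.04 and 54.9%), Tenm3 with 3 (46.7 and 67.8%) and Opcml, a GPI-anchored adhesion protein, with 2 (28.0 and 49.2%). Averaged over all bins of a gene, members included, IFC differed from the mean of the others by -12.995 points in Tenm4, -10.04 in Nrxn3, -6.20 in Tenm2, -9.45 in Dcc, 0.119 in Tenm3 and -8.80 in Opcml. Other genes of the list differed the other way, by 17.0 points in Slit2, a guidance ligand of Robo receptors, and by 6.95 in Dlgap2, a scaffold of the postsynaptic density, which were chosen after their values were seen. Both held 0 bins high only in IFC. Bins high only in IFC numbered 4 in this list (0.296%), against 0.403% of all bins in genes.

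The 12 cadherins and catenins had 10 members among 430 bins (2.33%), all in Cdh13. The 30 ion channels and glutamate or GABA receptors had 10 among 741 (1.35%), of which 4 were in Grin2b, a subunit of NMDA receptors (37.4% in IFC against 66.7% in SO), and 4 in Grik4, a subunit of kainate receptors (40.8 and 62.5%). The 28 developmental transcription factors had 32 among 995 (3.22%), of which 31 were in Sox5 and 1 in Foxp1, and the median difference of IFC over the bins of this list was 1.43 points. Averaged over all bins of a gene, IFC differed from the mean of SO, SOA and IV by -15.3 points in Sox5. It differed by 25.9 in Zfp521, 22.7 in Tcf4, 16.8 in Klf12 and 15.2 in Prdm16, the last 4 chosen after their values were seen. Prdm16 held 5 bins high only in IFC, while Zfp521, Tcf4 and Klf12 held 0. The study reported Tcf4 and Zfp521 as more methylated in SO than in SOA, and how far SO shared the IFC level in these genes was not tested. Bins high only in IFC numbered 3 in the cadherins and catenins (0.698%), 5 in the channels and receptors (0.675%) and 9 in the transcription factors (0.905%). In these lists too, the members came from 1 or a few genes.

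The 20 genes of the DNA methylation machinery had 1 member among 108 bins (0.926%), in Dnmt3a, where IFC was at 77.5% and SO, SOA and IV at 93.3, 94.0 and 93.7%. The 31 measured genes of oocyte and follicle growth had 1 member among 169 bins (0.592%), in Insr, the insulin receptor, at 69.7% in IFC against 88.0, 88.6 and 88.2%. Averaged over all bins of a gene, IFC differed by -2.61 points in Dnmt3a and -8.22 in Insr. Genes without a member differed in both directions, by -14.9 in Dppa3, -6.96 in Zfp57 and 12.5 in Mbd3. In the second list Nobox differed by -14.5 and Zp3 by 6.70. These genes without a member were chosen after their values were seen, and most had 1 bin. The lists were chosen with earlier results of these data known, and no test was made over them.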

How the data were processed

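CpG methylation was measured by PBAT in 16 pools of MII oocytes (4 IFC, 5 SO, 4 SOA, 3 IV). Per the labels, the authors trimmed reads with Trim Galore 0.4.4 and cutadapt 1.9.1 and mapped them to GRCm38 with Bismark 0.19.0. The deposited tables give, per CpG position and strand, the percent methylated beside the number of methylated calls and of unmethylated ones (counts), with no normalization. Donors were F1 and reads were mapped to the C57BL/6J genome, so that a CBA/Ca C-to-T variant reads as unmethylated, in all groups alike. PCR reads carried no molecular identifiers, and counts of calls cover counting error only.

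Calls were summed over 10-kb bins, and a group value was the mean of its samples' percentages. Calls of 2 groups in a bin were compared by a likelihood-ratio test of a logistic model of the pooled calls, with no minimum difference, adjusted over all 127108 bins (Benjamini-Hochberg, 0.05). The study also used logistic regression, on tiles of 100 CpGs and with a minimum difference. This test ignores the spread between samples, so limma 3.58.1 on sample percentages and a quasi-binomial F test were alternatives. Tests were tested on simulated data. Depth was 25 to 107 calls per member and sample in the median, at which 1 call in a bin of 25 is worth 4 points. Genes were the protein-coding and long noncoding RNA genes of GENCODE M21. Alternatives also covered call minimums, bin size and position, strands, thinning, shallow libraries and leaving out samples. Calls were made with Python 3.11.15, numpy 2.4.6 and scipy 1.17.1.

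Named genes were the 10 with the most members (at least 3, ties by summed gap), the 8 largest gaps with 20 or more calls per sample and no overlap, the 5 longest runs, list genes with 2 or more members, the 5 CpG-dense members with the largest gaps and the 3 bins on each side of the limit. Single members of a list, and genes tied, neighbouring or overlapping, were named after their values were seen. The members and the lists were chosen with earlier results of these data known.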

Additional observations from a re-analysis of the deposited data

Results flagged for a closer look

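Groups of 4 or 5 samples were searched for a sample far from the others, in 93 groups of values over the members and the genes, bins and runs named above. Chance would mark about 1 in 20 such groups, and 2 were marked. In the CpG-dense bin at Grid2ip, SO5 stood at 48.2%, while the other SO samples lay between 68.0 and 76.1%. In the run of 5 members in Arhgef28, SOA2 stood at 86.2%, while the other SOA samples lay between 73.3 and 75.5%.

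Chromosome X was left out of the rule. Of its 2943 bins with 10 or more calls in every sample, 25 were low only in IFC, a share of 0.849%. By the same rule 4 were low only in SO, 8 in SOA and 5 in IV, and 24 were high only in IFC. The 25 bins stood at 36.0% in IFC against 58.0% in SO, 63.3% in SOA and 62.0% in IV.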

How the results depend on the processing

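The number of members was 450 with 20 or more calls in every sample, 559 with a 20-point gap, 753 in bins of 20 kb, and 2303 with the 9 shallow libraries alone and no IV, of which 1009 were members. Fewer bins could be counted at 20 or more calls, 57035 or 44.9% of all bins, and the 450 were 37.7% of the members. Bins of 20 kb are another set of bins, whose share is not given. Without 1 sample it ran from 1094 to 1539, and the other settings kept it within 1.5 times 1195, though of the 984 bins found after thinning to the shallowest library only 719 were members. The difference of IFC from the others was -15.7 points in either strand split (-15.7093 and -15.7187), which chose the bins anew. Without 1 sample it lay between -25.9 and -23.9 over the 1195 members. These had been chosen with all 16 samples, so this range is a description and no check on the choice.

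Bins called in IFC vs SO, IFC vs SOA, IFC vs IV, SO vs SOA and SOA vs IV numbered 7109, 14850, 18146, 11440 and 10861. The quasi-binomial F test called 0, 360, 0, 48 and 0 (9839, 15589, 12519, 12456 and 7156 at an unadjusted p under 0.05) and limma 125, 2100, 2163, 602 and 0 (10511, 14969, 13668, 11970 and 6109). These tests count the spread between samples, the likelihood-ratio test does not. With 20 or more calls the first 4 were 4554, 8303, 10815 and 6834, with fewer bins tested, and after thinning to the shallowest library all 5 were 3094, 8685, 7945, 4912 and 1430. Without 1 sample they ran from 5985 to 7381, 10628 to 14639, 14132 to 21873, 7550 to 12718 and 2005 to 19632.

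With the replicate number as a block, SOA vs IV fell to 5342 and the others stayed within 1.5 times. Deviations of same-numbered samples were correlated at -0.0477 to 0.0811. The samples numbered 4 gave the highest value in IFC vs SO (0.0811), IFC vs SOA (0.0438) and SO vs SOA (0.0354). IFC4 and IV1, which differ in number, gave 0.0830. Whether samples of the same number shared a batch was not tested.

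The difference over all bins turned to 0.0498 for IFC minus SO with 20 or more calls (exact p = 0.929). Without 1 sample it ran from -0.291 to 0.404 for IFC minus SO, -0.554 to 0.378 for SOA and -1.27 to 0.669 for IV. Single bins rest on few calls in the shallow libraries.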
